A study of Homo sapiens with 6 samples.

Results

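The endothelial and EMT identity genes are a list of 42 genes chosen by name: 19 markers of endothelial cells, 11 mesenchymal genes, 6 transcription factors of the epithelial–mesenchymal transition (EMT), and 6 epithelial genes, of which 4 encode junction proteins and 2 encode splicing factors. All 42 were found by their GENCODE symbols among the 62700 genes of the tables. Of these, 21 reached a mean of 1 TPM (a relative transcript abundance, corrected for the length of the gene and the size of the library) over the 6 libraries and entered the test. Another 14 were above 0 in at least 1 library but under that mean, and 7 were listed at 0 in every library.

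RNA–Seq was performed on SK–Hep–1, an established human liver tumor line that is described as endothelial-derived. The 3 control libraries (shControl) came from cells titled as carrying a control shRNA, with a genotype label of wild type, and the 3 knockdown libraries (shRAB30-DT) from cells with an shRNA against the lncRNA *RAB30-DT*. The stable lines were made by lentiviral transduction of pLKO.1 vectors and puromycin selection, and the labels do not say which of the study's shRNAs was used. Nothing in the labels states that replicates were separate cultures, so the p-values measure the spread between these libraries only.

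Endothelial cells line blood vessels and are recognized by adhesion molecules of their junctions, by receptors for vascular growth factors, and by transcription factors of the ETS and SOXF families. In EMT, epithelial cells give up E-cadherin and tight junctions and take on vimentin filaments, N-cadherin and matrix proteins. The SNAI, TWIST and ZEB factors repress E-cadherin and other epithelial genes, whereas ESRP1 and ESRP2 keep epithelial splice forms. In liver tumors these factors are studied for invasion and metastasis.

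The level of *RAB30-DT* itself was 18.16 TPM in control replicate 1, 11.51 in replicate 2 and 13.91 in replicate 3, against 11.94, 10.85 and 6.5 TPM after knockdown. Knockdown replicate 1 was above control replicate 2, so the groups overlapped, and the log2 fold change of *RAB30-DT* was −0.55 (adjusted p = 0.355, limma). The paper separately reports a qPCR check of the knockdown in SK–Hep–1, whose values are not used here. Between 20127 and 21675 genes per library were above 0 TPM, the number of reads is unknown, and 14020 genes were tested. Of these, 146 (1.04%) passed an adjusted p of 0.05, with 52 (0.371%) higher and 94 (0.67%) lower in knockdown cells. Median-of-ratios scaling gave 60 higher and 69 lower, and quantile normalization 78 and 83. For 23.3% of the tested genes the 3 control and 3 knockdown values did not overlap, 9.89% with all knockdown values higher and 13.4% with all lower.

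The mesenchymal genes *VIM*, *SPARC* and *CAV1* were abundant, but others of that lineage were not. *CDH2* and *PDGFRB* had control means of 3.83 and 4.18 TPM, and *CDH11* and *MMP2* were at 0. Most defining endothelial genes and E-cadherin were at or near 0. None of the 21 tested members passed the threshold between knockdown and control cells. With limma, 0 of 21 had an adjusted p under 0.05 and 6 had an unadjusted p under 0.05, where 16.8% of all tested genes did. The 6 were *PDGFRB*, *FLI1*, *CLDN1*, *CAV1*, *SPARC* and *VIM*. The same 6 members (28.6%) had control and knockdown values that did not overlap, beside 23.3% of all tested genes. *FLI1* and *VIM* lay higher in knockdown cells and the other 4 lower. The median log2 fold change over the 21 tested members was 0.01, against −0.04 over all tested genes.

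**Figure D1:**
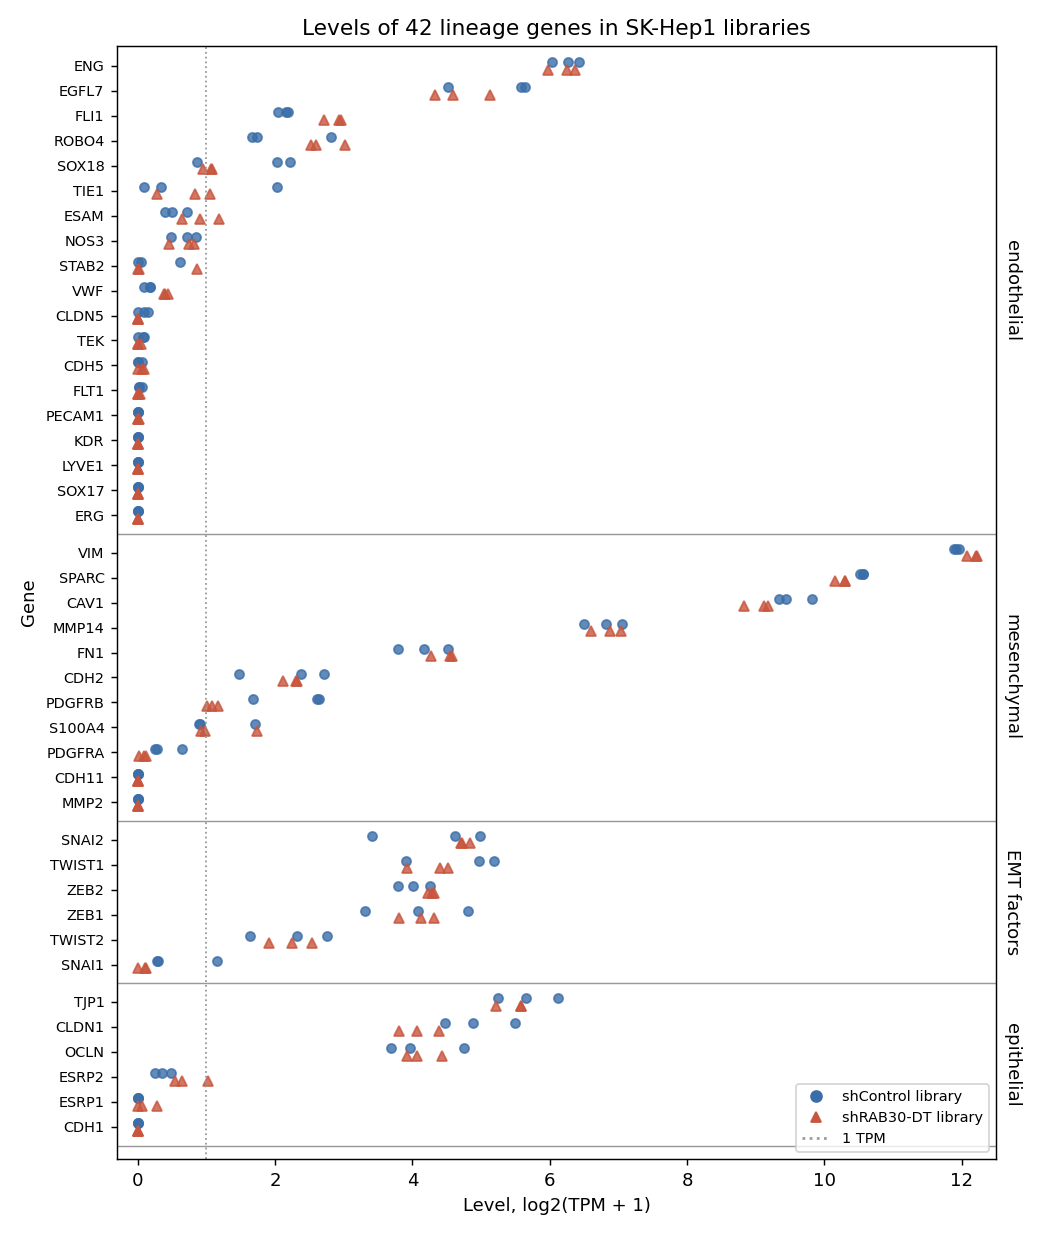
Levels of the 42 genes as log2(TPM + 1), with 1 point per library, circles for the 3 control and triangles for the 3 knockdown libraries, grouped by lineage. *VIM*, *SPARC* and *CAV1* stand at the top, while 14 of 19 endothelial genes lie under a mean of 1 TPM and *CDH1* is at 0 throughout.

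Of 9 defining endothelial markers (*PECAM1*, *CDH5*, *VWF*, *KDR*, *TEK*, *TIE1*, *ERG*, *CLDN5* and *EGFL7*), only *EGFL7* reached a mean of 1 TPM. The endothelial origin given for the line was not tested by these RNA levels. Outside them, *ENG*, *ROBO4*, *FLI1* and *SOX18* of the list reached that mean. In a longer list of 41 endothelial genes, 17 reached it and 24 did not. The highest there were *S1PR1*, *ETS1* and *PROCR*, with control means of 120.3, 117.7 and 111.8 TPM. Of these, *PROCR* was lower in knockdown cells without overlap, short of the threshold (log2 fold change −0.67, adjusted p = 0.0911, limma). *S1PR1* and *ETS1* overlapped between groups. Among the junction and adhesion genes, *PECAM1*, which encodes the platelet and endothelial adhesion molecule CD31, was listed at 0 in 5 libraries and at 0.01 TPM in knockdown replicate 1. *CDH5*, the cadherin of endothelial adherens junctions, did not exceed 0.06 TPM in any library, and *CLDN5*, a claudin of vascular tight junctions, did not exceed 0.11 TPM. *ESAM*, an adhesion molecule of endothelial tight junctions, had 0.64, 0.41 and 0.32 TPM in control and 0.56, 1.27 and 0.88 TPM in knockdown replicates 1, 2 and 3. None of the 4 junction genes was tested.

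Among the receptors, *KDR*, which encodes VEGF receptor VEGFR2, and *LYVE1*, a hyaluronan receptor of lymphatic and liver sinusoidal endothelium, were at 0 in all libraries. *FLT1*, another VEGF receptor, and *TEK*, the angiopoietin receptor, did not exceed 0.07 TPM. *TIE1*, the partner of *TEK*, had 0.26, 3.08 and 0.07 TPM in control and 0.22, 0.79 and 1.08 TPM in knockdown replicates 1, 2 and 3, so control replicate 2 lay above the other 5 libraries. *STAB2*, a scavenger receptor of liver sinusoids, reached 0.53 TPM in control replicate 3 and 0.82 TPM in knockdown replicate 3, and stayed at or under 0.03 TPM in the other 4. Its exons overlap an lncRNA on the other strand, which had a mean of 1.48 TPM against 0.232 TPM for *STAB2*. A longer set of liver sinusoidal genes was as sparse, as 1 of 11 reached a mean of 1 TPM. That gene was *F8*, coagulation factor VIII, with 3.72, 2.14 and 0.94 TPM in control and 4.1, 3.83 and 3.45 TPM in knockdown replicates 1, 2 and 3 (log2 fold change 0.64, adjusted p = 0.387, limma, and 0.31 without control replicate 3).

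*ENG*, or endoglin, a co-receptor for TGF-β and BMP ligands, was the endothelial member with the highest level. Its TPM were 64.53, 85.08 and 76.2 in control and 62.18, 75.42 and 81.52 in knockdown replicates 1, 2 and 3. The groups covered nearly the same range, and the log2 fold change was −0.04 with a 95% interval from −0.46 to 0.37 (limma). *ROBO4*, a guidance receptor of endothelium, had 2.17, 6.06 and 2.32 TPM in control and 4.77, 5.03 and 7.1 TPM in knockdown libraries. Control replicate 2 lay within the knockdown range, for a log2 fold change of 0.64 (standard error 0.35, adjusted p = 0.395, limma). It was 1.02 without control replicate 2.

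*EGFL7* encodes a secreted protein of endothelial cells that shapes vessel tubes. It had 21.99, 46.73 and 48.65 TPM in control and 19.06, 23.17 and 34.15 TPM in knockdown replicates 1, 2 and 3. Replicate 1 was the lowest of its group in both conditions, the groups overlapped, with a log2 fold change of −0.56 (standard error 0.34, adjusted p = 0.448, limma). With single libraries left out it was between −0.92 (without control replicate 1, adjusted p = 0.0758) and −0.36 (without control replicate 3, adjusted p = 0.623). *VWF*, the von Willebrand factor of endothelial storage granules, was at 0.07, 0.13 and 0.13 TPM in control and 0.3, 0.36 and 0.31 TPM in knockdown replicates 1, 2 and 3. These values did not overlap, but all were under 1 TPM and were not tested. *NOS3*, endothelial nitric oxide synthase, had means of 0.617 TPM in control and 0.603 TPM in knockdown cells.

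Of the endothelial transcription factors, *ERG*, an ETS factor that holds up endothelial identity, and *SOX17*, a SOXF factor of arteries, were at 0 in every library. The related ETS gene *FLI1* (ENSG00000151702.18) was detected. Its TPM were 3.57, 3.13 and 3.45 in control and 6.75, 6.59 and 5.53 in knockdown replicates 1, 2 and 3. Each knockdown library was above each control library. Its log2 fold change of 0.73 (standard error 0.21, 95% interval 0.25 to 1.21) was short of the threshold over all genes (adjusted p = 0.139, limma). It passed with each library's trend with GC content removed (adjusted p = 0.0353, where 8.5% of all genes passed), but not with the replicate block added to that (0.0666) or alone (0.0749). It also passed with limma's arrayWeights (0.0075), which called 23% of all genes. Its direction was the same in each of the alternatives run. The antisense lncRNA *SENCR* overlaps exons of *FLI1* and had a mean of 1.62 TPM, and whether reads were counted by strand is not given in the sources used here.

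*SOX18*, the other SOXF member of the list, had 0.82, 3.65 and 3.06 TPM in control and 1.1, 1.12 and 0.94 TPM in knockdown replicates 1, 2 and 3. Control replicate 1 was below the knockdown libraries and control replicates 2 and 3 above them (log2 fold change −0.66, standard error 0.39, adjusted p = 0.429, limma). Leaving out control replicate 1 gave −1.08 and leaving out control replicate 2 gave −0.41. In families looked up after these values were seen, *SOX7*, the third SOXF gene, had means of 2.9 and 2.8 TPM, and 18 of 27 ETS genes reached a mean of 1 TPM. *ETS1* was the most abundant of these, with 132.75, 110.67 and 109.75 TPM in control and 129.52, 121.68 and 107.55 TPM in knockdown replicates 1, 2 and 3. For the 5 tested endothelial members the median log2 fold change was −0.04, with 2 above and 3 below 0.

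**Figure D2:**
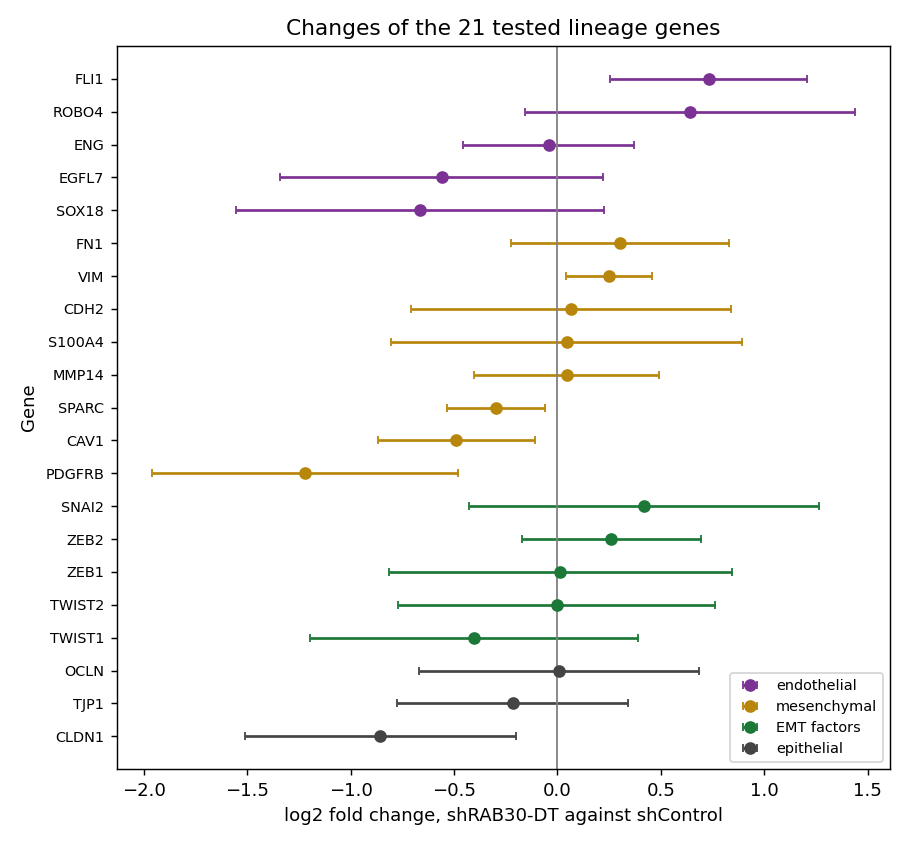
Log2 fold change of knockdown against control cells for the 21 tested genes, with 95% intervals from limma, colored by lineage. The intervals of 6 genes exclude 0 (*FLI1*, *VIM*, *SPARC*, *CAV1*, *PDGFRB* and *CLDN1*), and none passed the threshold after adjustment over all genes.

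The mesenchymal genes held most of the summed level of the list, but 6 of the 11 (*CDH11*, *MMP2*, *PDGFRA*, *S100A4*, *CDH2* and *PDGFRB*) had control means under 5 TPM. Their summed level was between 6110.6 and 6509.8 TPM in control and between 6211.1 and 6747.4 TPM in knockdown libraries, nearly all of it from *VIM*, *SPARC* and *CAV1*. *VIM*, the intermediate filament vimentin, was number 26 of all 62700 genes by its control mean, *SPARC* number 117 and *CAV1* number 177.

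*VIM* (ENSG00000026025.16) had 3997.41, 3857.48 and 3793.03 TPM in control and 4724.21, 4784.16 and 4335.79 TPM in knockdown replicates 1, 2 and 3. All knockdown values lay above all control values, with means of 3883 ± 104.5 and 4615 ± 243.4 TPM (SD, n = 3 each). The log2 fold change of 0.25 (standard error 0.09, adjusted p = 0.225, limma) became −0.05 with quantile normalization. *SPARC* (ENSG00000113140.11), a secreted glycoprotein that binds collagen, had 1464.64, 1513.28 and 1511.85 TPM in control and 1140.66, 1260.13 and 1259.99 TPM in knockdown libraries. Its knockdown values were all below its control values, with a log2 fold change of −0.30 (standard error 0.10, adjusted p = 0.208, limma). *CAV1* (ENSG00000105974.13), the coat protein of caveolae, had 901.42, 649.69 and 696.2 TPM in control and 577.92, 557.29 and 455.78 TPM in knockdown libraries. The groups did not overlap there either, with a log2 fold change of −0.49 (standard error 0.17, adjusted p = 0.194, limma), which was −0.28 with quantile normalization. With arrayWeights, which called 6 of 21 members (28.6%) and 23% of all genes, *VIM* and *SPARC* passed the threshold (adjusted p = 0.0170 and 0.0262), and *CAV1* did not (0.0715).

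**Figure D3:**
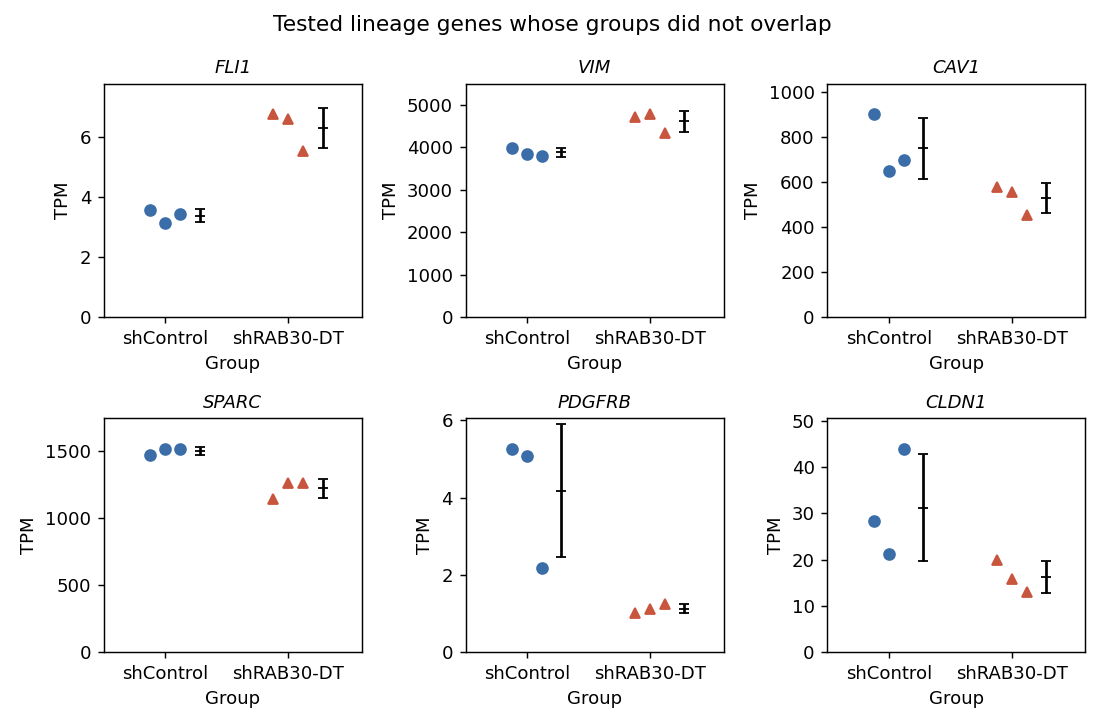
TPM per library for the 6 tested genes whose control and knockdown values did not overlap, with the mean ± SD of 3 libraries beside the points. *FLI1* and *VIM* were higher and *CAV1*, *SPARC*, *PDGFRB* and *CLDN1* lower in all knockdown libraries.

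The platelet-derived growth factor receptors mark fibroblasts, stellate cells and pericytes. *PDGFRB* (ENSG00000113721.14) had 5.26, 5.08 and 2.19 TPM in control and 1.02, 1.12 and 1.24 TPM in knockdown replicates 1, 2 and 3. Even the lowest control library exceeded the highest knockdown library, and the log2 fold change of −1.22 (standard error 0.32, 95% interval −1.96 to −0.48) was the largest of the tested members in size. It missed the threshold (adjusted p = 0.120, limma), and passed it without control replicate 3, the lowest control library (−1.54, adjusted p = 0.0431). Over the other single libraries left out, the adjusted p was at most 0.380. *PDGFRA* was too low to be tested, with 0.21, 0.19 and 0.57 TPM in control and 0.07, 0.01 and 0.09 TPM in knockdown libraries, and did not overlap either. Looked up after these values were seen, the ligand gene *PDGFB* had 4.62, 5.19 and 2.64 TPM in control and 0.61, 1.49 and 0.69 TPM in knockdown libraries (log2 fold change −1.41, adjusted p = 0.0875, limma). *PDGFRL* of the same family went the other way, without overlap (log2 fold change 0.69, adjusted p = 0.151, limma). The ligand genes *PDGFC* and *PDGFA* had log2 fold changes of 0.64 and −0.02 (adjusted p = 0.471 and 0.980, limma).

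The other mesenchymal genes did not separate the groups. *CDH2*, or N-cadherin, had 5.54, 4.17 and 1.77 TPM in control and 3.96, 4.01 and 3.32 TPM in knockdown libraries. *FN1*, fibronectin of the extracellular matrix, had 22.01, 16.96 and 12.83 TPM in control and 18.31, 22.83 and 22.37 TPM in knockdown libraries, with a log2 fold change of 0.30 (95% interval −0.22 to 0.83, limma). *MMP14*, a membrane-bound matrix metalloproteinase, had means of 111.5 ± 21.1 and 114.4 ± 17.1 TPM (SD, n = 3 each). *S100A4*, a calcium-binding protein linked to motility, was near 1 TPM in replicates 1 and 2 of both groups and at 2.25 and 2.34 TPM in control and knockdown replicate 3. *CDH11*, a cadherin of mesenchymal cells, and *MMP2*, a secreted gelatinase, were at 0 throughout. The median log2 fold change of the 8 tested mesenchymal genes was 0.05, with 5 above and 3 below 0.

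Of the 6 EMT factors, 5 were expressed at a mean of 1 TPM or more, in both groups, and none of them separated control from knockdown cells. *SNAI2* (Slug) had 30.6, 23.5 and 9.68 TPM in control and 27.63, 25.4 and 25.25 TPM in knockdown replicates 1, 2 and 3. *TWIST1* had 13.94, 30.4 and 35.29 TPM in control and 14.16, 20.17 and 21.87 TPM in knockdown libraries. In both cases the knockdown libraries lay within the control range. *ZEB1* had 26.91, 16.01 and 8.88 TPM in control and 18.84, 16.5 and 12.92 TPM in knockdown libraries, and *ZEB2* 18.06, 15.03 and 12.82 TPM and 18.49, 18.96 and 17.66 TPM.

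*TWIST2* was lower than these 4, with 3.98, 5.76 and 2.1 TPM in control and 2.77, 3.74 and 4.79 TPM in knockdown replicates 1, 2 and 3. *SNAI1* (Snail) had 0.22, 0.23 and 1.22 TPM in control and 0, 0.08 and 0.09 TPM in knockdown libraries, values that did not overlap but were too low to be tested. By their means over the 6 libraries the order was *SNAI2*, *TWIST1*, *ZEB2*, *ZEB1*, *TWIST2* and *SNAI1*, where the first 4 overlapped with each other over libraries. Log2 fold changes of the 5 tested factors were between −0.40 and 0.42, and the lowest adjusted p was 0.527 (limma). The intervals were wide, for example from −0.43 to 1.27 for *SNAI2* and from −0.81 to 0.84 for *ZEB1*. Their summed level was between 69.99 and 93.71 TPM in control and between 81.89 and 84.85 TPM in knockdown libraries. The median log2 fold change was 0.01, and 0.38 without control replicate 1 and −0.16 without control replicate 3.

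The tested EMT factors other than *ZEB2* spread widely within the control group, and the direction of this spread differed between factors. In control cells, *SNAI2* and *ZEB1*, with an exon GC content of 41.1% and 41.3%, differed between replicates 3 and 1 by −1.565 and −1.498 on the log2(TPM + 1) scale, while *TWIST1*, with 53.4%, differed by 1.28. *TWIST2*, with a GC content of 55.5%, differed by −0.684 in control cells and by 0.619 in knockdown cells, so it did not follow *TWIST1* in control cells. *EGFL7* and *SOX18*, with 68.2% and 69.3%, differed by 1.11 and 1.16 in control cells. There *ZEB2*, with 40.6%, differed by only −0.464, and *CLDN1*, with 41.1%, by 0.614. Over the 21 tested members, the difference between control replicates 3 and 1 had a Spearman's rho of 0.562 with exon GC content, and that between knockdown replicates 3 and 1 of 0.679. The members share these libraries, so the values are a description. Across all tested genes, deviations from the gene mean had a rho with GC content from −0.606 in control replicate 1 to 0.489 in control replicate 3, and from −0.524 to 0.335 in the knockdown libraries. The change between groups had a rho of −0.336 with GC content over the 21 members, and with each library's GC trend removed 1 of 21 members passed the threshold (4.76%, against 8.5% of all genes), and 0 when the replicate block was added.

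**Figure D4:**
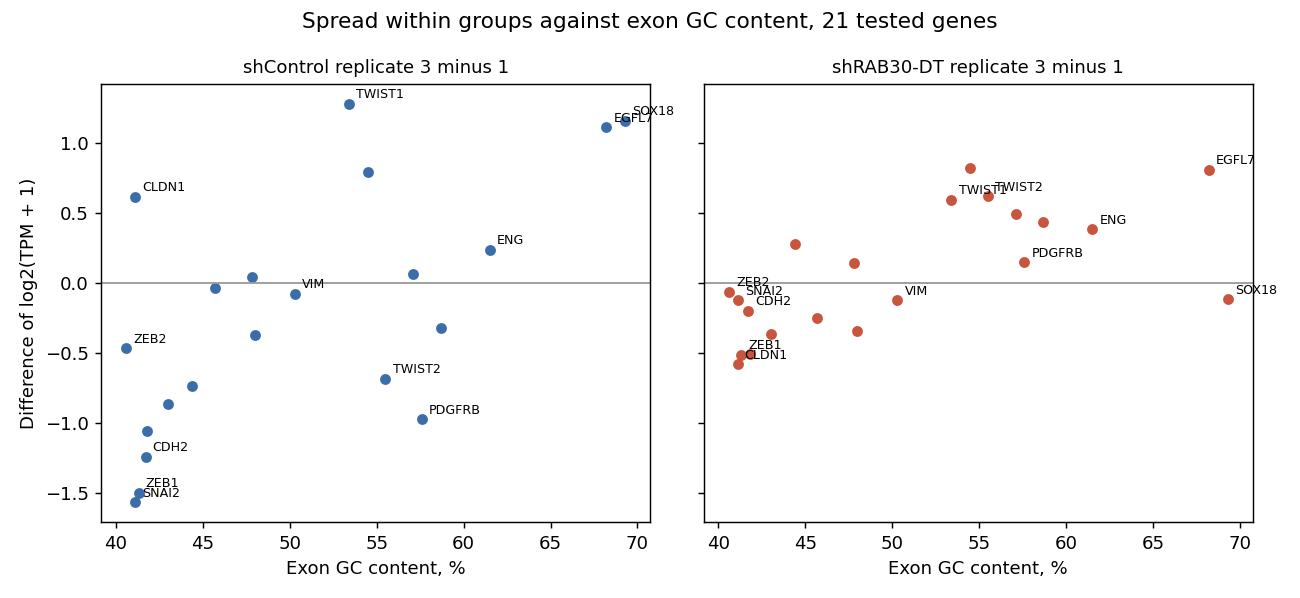
Difference of log2(TPM + 1) between replicates 3 and 1 of control (left) and knockdown cells (right) against exon GC content in percent, with 1 point per tested gene. *ZEB1* and *SNAI2* lie below 0 and *EGFL7* and *TWIST1* above 0 in both groups, while *CLDN1*, *FN1*, *TWIST2*, *PDGFRB*, *MMP14* and *SOX18* lie on opposite sides of 0 in control and knockdown cells.

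On the epithelial side, *CDH1*, or E-cadherin, was listed at 0 in all 6 libraries. *ESRP1* reached at most 0.22 TPM. *ESRP2* had 0.19, 0.28 and 0.4 TPM in control and 0.46, 1.04 and 0.57 TPM in knockdown replicates 1, 2 and 3, without overlap, but its exons overlap those of *NFATC3* on the other strand, which had a mean of 9.88 TPM. Tight junction genes were present nonetheless. *OCLN* (occludin), a membrane protein of tight junctions, had 25.81, 14.6 and 11.9 TPM in control and 20.58, 15.79 and 14.19 TPM in knockdown libraries. *TJP1*, the scaffold protein ZO-1, had 68.28, 49.42 and 37.15 TPM in control and 46.86, 46.74 and 36.16 TPM in knockdown libraries. For both the groups overlapped, and their log2 fold changes were 0.01 and −0.22, with 95% intervals from −0.67 to 0.69 and from −0.78 to 0.34 (limma).

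Because these 2 genes were expressed beside SNAI2 and ZEB factors, which bind the E-box letters CACCTG, their promoters are shown at each match. RefSeq promoter sequences (GRCh38.p14) were found for 25 of the 42 members, and the 250 bases before each start were searched on both strands. In the windows, E-box letters, read as CAGGTG on the strand of the gene, are in capitals.

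OCLN, chr5:69492504-69492529, plus strand, 33 bases before a start: atccgagtttCAGGTGaattggtcac
OCLN, chr5:69492647-69492672, plus strand, 133 bases before another start: taggacgcagCAGGTGggactcgcgg
TJP1, chr15:29969122-29969147, minus strand, 88 bases before a start: ggccggcgcgCAGGTGgcccggcctc

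Both promoters of *OCLN* held a match, as did 1 of 4 promoters of *TJP1* and 0 of 1 of *CLDN1*. In the whole table, 17.5% of 35116 promoters did. Matches also lay before starts of *S100A4*, *NOS3*, *ZEB1* and *ERG*, so they were not particular to the epithelial members. *CDH1*, *ESRP1* and *ESRP2* were not among the members with a promoter sequence, so they were not searched. A match is a description of these letters and not evidence of binding.

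*CLDN1* (ENSG00000163347.6), a claudin that seals tight junctions, was the only tested epithelial gene whose groups did not overlap, though it did not pass the threshold. It had 28.35, 21.28 and 43.92 TPM in control and 19.98, 15.78 and 13.04 TPM in knockdown replicates 1, 2 and 3. All knockdown values lay below all control values, with means of 31.2 ± 11.6 and 16.3 ± 3.50 TPM (SD, n = 3 each). This was a log2 fold change of −0.86 (standard error 0.29, 95% interval −1.51 to −0.20, adjusted p = 0.190, limma). With single libraries left out it was between −1.09 and −0.59, the latter without control replicate 3, its highest library. It was lower in knockdown cells under each alternative run. The median over the 3 tested epithelial genes was −0.22.

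With *CDH1*, *CDH5* and *CDH11* at or near 0 and *CDH2* low, the cadherin family was looked up after these values were seen, and 5 of its 23 listed genes reached a mean of 1 TPM. *CDH13*, a cadherin anchored by a lipid tail, was the most abundant, with 67.66, 63.68 and 37.59 TPM in control and 96.59, 101.85 and 89 TPM in knockdown replicates 1, 2 and 3. All 3 knockdown values were above the control values, with a log2 fold change of 0.80 (adjusted p = 0.151, limma). *CDH24* had 8.98, 11.9 and 15 TPM in control and 5.82, 7.45 and 5.81 TPM in knockdown libraries, also without overlap (log2 fold change −0.80, adjusted p = 0.152, limma). *CDH4* and *CDH18* overlapped between groups. Of 24 claudins, 4 reached that mean. Of these, *CLDN12* had 34.28, 22.89 and 20.96 TPM in control and 52.49, 42.87 and 35.34 TPM in knockdown libraries, opposite in sign to *CLDN1* (log2 fold change 0.73, adjusted p = 0.184, limma).

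**Figure D5:**
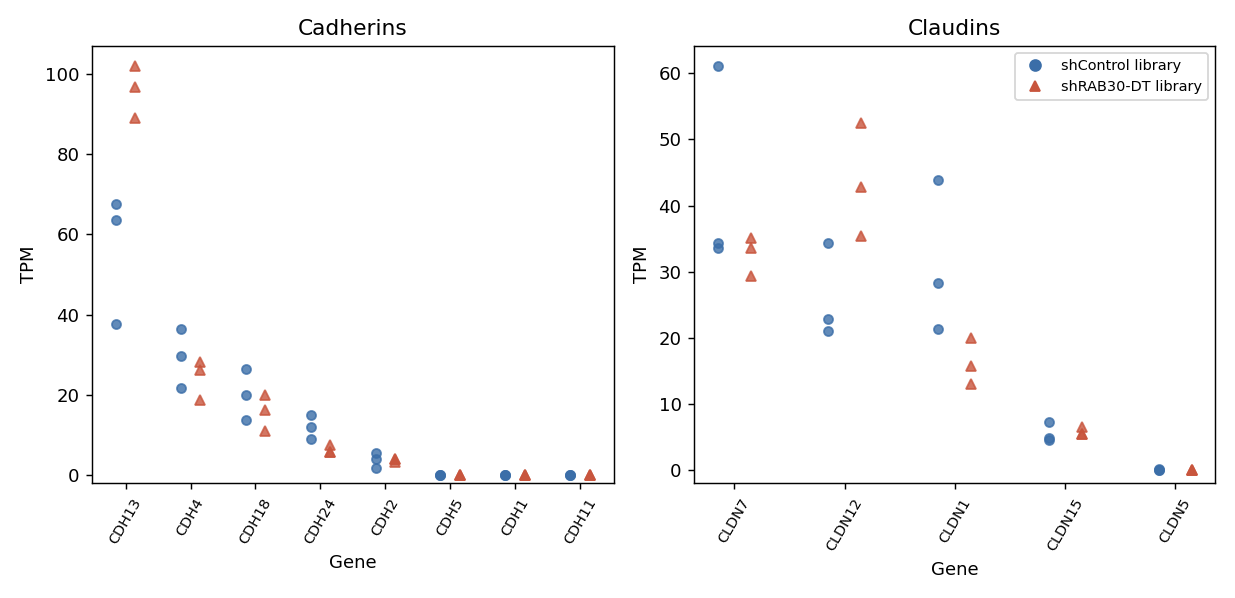
TPM per library of the cadherins (left) and claudins (right) with a mean of at least 1 TPM, together with *CDH1*, *CDH5*, *CDH11* and *CLDN5*, with circles for control and triangles for knockdown libraries. *CDH13* and *CLDN12* lie higher and *CDH24* and *CLDN1* lower in the 3 knockdown libraries.

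Longer lists of the same lineages are given beside the 1.04% of all tested genes that were called. Of 41 further endothelial genes, 17 were tested, with 4 log2 fold changes above and 13 below 0 and a median of −0.16. Only *APLN* passed. This gene, which encodes the vascular peptide apelin, rose from 2.89, 4.4 and 2.67 TPM in control to 8.45, 11.59 and 11.44 TPM in knockdown replicates 1, 2 and 3 (log2 fold change 1.42, standard error 0.24, adjusted p = 0.0429, limma). The call was kept without control replicate 1 (adjusted p = 0.0382) and lost without any other single library, with adjusted p from 0.0623 to 0.226. It was also lost without the filter on low values (0.136) and with a minimum mean of 5 TPM (0.0533). The 146 calls over all genes moved too, to 489 without control replicate 1 and 160 without control replicate 3. They fell to 12 without control replicate 2 and to 18, 15 and 16 without knockdown replicates 1, 2 and 3. *JAG2*, a Notch ligand, had the lowest log2 fold change of this list, −1.01 (adjusted p = 0.202, limma). It passed without control replicate 1 (0.0476) and with the GC trend removed (0.0421, where 8.5% of all genes passed). Leaving out control replicate 3 gave −0.72 (0.290). Control replicate 3 stood apart in *KLF2* and *KLF4*, flow-responsive factors of endothelium, with 119.16 and 21.96 TPM against at most 37.03 and 4.36 TPM in the other 5 libraries.

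Among 36 further mesenchymal genes, 26 were tested, with 13 changes on either side of 0. Of these, 2 passed, where 1.04% of all tested genes did. *ACTA2*, smooth muscle α-actin, rose from 9.18, 10.05 and 8.07 TPM in control to 39.19, 39.21 and 43.14 TPM in knockdown replicates 1, 2 and 3 (log2 fold change 2.04, standard error 0.17, adjusted p = 0.00444, limma). The call was kept with any single library left out (adjusted p at most 0.0411). *THBS1*, the matrix protein thrombospondin-1, fell from 183.76, 169.22 and 156.64 to 79.85, 76.01 and 59.44 TPM (log2 fold change −1.24, standard error 0.17, adjusted p = 0.0252, limma). Its call was lost without control replicate 2 (adjusted p = 0.130) and without knockdown replicates 1, 2 and 3 (0.0865, 0.138 and 0.126), and without the filter on low values (0.0708). The 2 genes are both counted as mesenchymal and moved in opposite directions.

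Of 21 genes of EMT signalling, 19 were tested and 0 passed with limma, with 9 changes above and 10 below 0. Of the 19, 3 had an unadjusted p under 0.05 (limma), beside 16.8% of all tested genes. *TGFBR2*, a TGF-β receptor, had 33.02, 23.67 and 9.59 TPM in control and 52.93, 49.12 and 44.93 TPM in knockdown replicates 1, 2 and 3, without overlap (log2 fold change 1.27, standard error 0.39, adjusted p = 0.159, limma), and passed without control replicate 1 (1.63, adjusted p = 0.0391). Without control replicate 3 it was 0.78 (adjusted p = 0.114). *FOXC2*, a forkhead factor of EMT, had the lowest log2 fold change, −0.67 (adjusted p = 0.324, limma). Of 40 further epithelial genes, 18 were tested and 0 passed, with 4 changes above and 14 below 0 and a median of −0.33. Of the 18, 3 had an unadjusted p under 0.05 (limma), beside 16.8% of all tested genes. The groups did not overlap for 6 (33.3%), 1 higher and 5 lower in knockdown cells, beside 23.3% of all tested genes. *SPINT2*, a serine protease inhibitor, had 4.57, 12.08 and 4.74 TPM in control and 2.05, 2.03 and 1.77 TPM in knockdown libraries (log2 fold change −1.34, adjusted p = 0.120, limma). *PARD6B*, a polarity protein, had the highest, 0.40 (adjusted p = 0.526). *GRHL2*, a factor of epithelial identity, was at 0 throughout, and *EPCAM* at 0 in all but control replicate 3, which had 0.18 TPM.

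All 7 adherens junction partners were tested, with 7 log2 fold changes below 0 and a median of −0.29. Only *CTNNB1* passed. This gene, or β-catenin, which links cadherins to the cytoskeleton through α-catenin, fell from 353.47, 358.78 and 328.89 TPM in control to 169.49, 218.66 and 192.24 TPM in knockdown replicates 1, 2 and 3 (log2 fold change −0.85, standard error 0.14, adjusted p = 0.0422, limma). The call was kept without control replicate 1 (adjusted p = 0.0341) and lost without any other single library, with adjusted p from 0.0548 to 0.180, as well as with median-of-ratios scaling (0.0552), quantile normalization (0.0817), eBayes without trend (0.0957) and no filter on low values (0.105). *JUP*, or plakoglobin, its close relative, had 19.05, 23.75 and 9.72 TPM in control and 6.9, 8.5 and 7.83 TPM in knockdown libraries (log2 fold change −1.002, adjusted p = 0.164, limma), and passed without control replicate 3 (−1.35, adjusted p = 0.0320). Without control replicate 2 it was −0.75 (adjusted p = 0.406). *CTNNA1*, or α-catenin, overlapped between groups, with a log2 fold change of −0.08 that changed sign with quantile normalization (0.11) and arrayWeights (0.07).

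Markers of other cells were read in the same libraries. Of 14 hepatocyte genes, 1 reached a mean of 1 TPM, and 7, among them *ALB* and *HNF4A*, were at 0 in all libraries. That gene, *SERPINA1*, carried nearly all of the list's sum, which was between 20.88 and 26.47 TPM in control and between 28.96 and 38.19 TPM in knockdown libraries. Of 6 leukocyte genes, 2 reached that mean, *CD68* and *HLA-DRA*, while *PTPRC* and *CD3E* were at 0. The sum, mostly *CD68*, a lysosomal protein, was between 31.61 and 73.95 TPM in control and between 109.3 and 132.05 TPM in knockdown libraries. Of 10 fibroblast and stellate cell genes, 2 reached it (*COL1A1* and *RGS5*), with *HGF* and *LRAT* at 0, and their sum was between 4.29 and 7.24 TPM in control and between 5.11 and 6.76 TPM in knockdown libraries. The part of these genes in the results above was not tested. In bulk libraries, a change in the share of a cell population and a change in RNA per cell cannot be told apart.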

How the data were processed

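Gene expression was measured by RNA–Seq of poly-A selected RNA in 6 SK–Hep–1 libraries, 3 shControl and 3 shRAB30-DT, grouped by their titles. Per the methods, the authors used fastp for trimming, STAR for alignment and RSEM for quantification, and the deposited values are gene-level TPM with 2 decimals. The labels' processing notes name HISAT2 (2.0.5) beside fastp and build hg38, so the aligner is uncertain. All 62700 gene identifiers matched GENCODE Release 44, used for names, overlaps and GC content, whereas the methods name another release. Read numbers cannot be had from TPM, and precision is limited by 3 libraries per group.

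The log2(TPM + 1) values of 14020 genes, those averaging 1 TPM or more, were fitted with limma 3.58.1 (R 4.3.3, lmFit and eBayes with trend, 2-sided, no replicate block). Adjustment was by Benjamini–Hochberg over all 14020 genes, with a threshold of 0.05, and intervals are limma's at 95%. Fold changes on this scale understate those of low genes. No set test was made. Simulated data with 200 altered genes served to test the script. The members and lists were chosen with earlier results of these data known. All members are named. From each longer list the text names genes past the threshold and those with the largest rise and fall, and any others, like the cadherin, claudin, ETS, SOXF and PDGF families, were picked after their values were seen.

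Alternatives were pseudocounts of 0.1 and 5, the filter dropped or set to 5 TPM, quantile or median-of-ratios scaling, eBayes without trend, arrayWeights (gene-by-gene), a replicate block, removal of each library's GC trend (loess, span 0.3) alone or with that block, and each library left out in turn.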

Additional observations from a re-analysis of the deposited data

How the results depend on the processing

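The count of tested members past the threshold was 0. It was 6, or 28.6%, with arrayWeights, where 23% of all genes passed (*VIM*, *SPARC*, *PDGFRB*, *FLI1*, *EGFL7* and *SOX18*, as did *JAG2*, *TGFBR2*, *FOXC2*, *SPINT2* and *JUP* of the longer lists), 1, or 4.76%, with the GC trend removed, where 8.5% of all genes passed (*FLI1*), and from 0 to 1 with one library left out (*PDGFRB*, without control replicate 3). Among all genes 146 were called. That count was 13 when unfiltered, 3218 with arrayWeights, 861 with a replicate block, 1191 with the GC trend removed, 1028 with both of the latter, and with one library left out, 12 at the lowest (control replicate 2 omitted) and 489 at the highest (control replicate 1 omitted). It was 18, 15 and 16 without knockdown replicates 1, 2 and 3. The median of the EMT factors ran from −0.16 to 0.38 across these 6 fits. The causes were not tested. The medians of the other lineages moved by less than the spread of library medians within groups. Higher calls made up 35.6%, against 46.5% with median-of-ratios scaling, 48.4% with quantile normalization, 44.8% with the GC trend removed and 37.2% to 60% with one library left out. Pairing by replicate number was not assumed, since deviations from group means of same-numbered libraries had correlations of 0.41, 0.0359 and 0.279 and not every pair exceeded 0.1. With the replicate block 0 members were called.

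Some log2 fold changes short of the threshold changed sign. That of *TWIST2* was 0.0117 with a pseudocount of 0.1, 0.0189 with median-of-ratios scaling and 0.0498 with the GC trend removed, with or without the replicate block. With a pseudocount of 5, *ZEB1* was at −0.00627 and *OCLN* at −4.95e-06, and *OCLN* at −0.0038 and *ENG* at 0.0522 with the GC trend removed, with or without the block. With quantile normalization, *ENG* was at 0.10, *VIM* at −0.0526, *S100A4* at −0.10 and *CTNNA1* at 0.11. With arrayWeights, *CDH2* was at −0.0325, *MMP14* at −0.12 and *CTNNA1* at 0.0688. With one library left out, the range was −0.148 to 0.0672 for *ENG*, −0.291 to 0.329 for *CDH2*, −0.218 to 0.313 for *S100A4*, −0.101 to 0.174 for *MMP14*, −0.0396 to 0.743 for *SNAI2*, −0.306 to 0.257 for *TWIST2*, −0.366 to 0.383 for *ZEB1*, −0.212 to 0.316 for *OCLN*, −0.427 to 0.00308 for *TJP1* and −0.146 to 0.0263 for *CTNNA1*.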
